A study of Mus musculus with 12 samples.

Results

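Gpnmb and the 4 genes of the MiT/TFE family, Mitf, Tfeb, Tfe3 and Tfec, were followed across 12 libraries of mouse bone marrow-derived macrophages, which are macrophages grown in culture from bone marrow. These 5 genes were found by matching their symbols to the Ensembl identifiers of a table of 54532 genes, and all 5 were among the 15338 genes that passed a filter on low counts. The cells carried the R150X allele of Gpnmb or came from control mice (WT), and were either given oxidised low-density lipoprotein (OxLDL) or left untreated. Each of the 4 groups, R150X with OxLDL, WT with OxLDL, R150X untreated and WT untreated, had 3 libraries. Both genotypes carried the same strain label, a cross to DBA/2 followed by backcrossing to C57BL/6, and the labels named no Cre driver or transgene. No OxLDL dose or duration, age, sex or batch was given, nor was the mouse, culture or pool behind a library, so every p-value measures a spread between libraries that may be technical. The series was set up to ask how GPNMB bears on the formation of lipid-filled macrophages, called foam cells.

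GPNMB is a transmembrane glycoprotein of the endosomal and lysosomal system whose ectodomain can be shed, and it is abundant in macrophages loaded with lipid. MITF, TFEB, TFE3 and TFEC are related basic helix-loop-helix leucine zipper proteins that bind DNA as homodimers or as heterodimers with each other. When the kinase mTORC1 is active on lysosomes they are phosphorylated and held in the cytoplasm, and under starvation or lysosomal stress they enter the nucleus and switch on genes for lysosomes and autophagy through E-boxes known as CLEAR elements. GPNMB is a known target of MITF in pigment cells and osteoclasts and of this family in macrophages. RNA counts measure neither phosphorylation nor nuclear location.

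The R150X allele is named for a stop in place of arginine 150, so the codon is shown to place it in the gene. In the reference transcript Gpnmb-201, codon 150 is CGA, an arginine codon, at chr6:49045385-49045387 on the plus strand of GRCm38, in exon 4 of 11. It follows 149 of 574 codons, or 26.0% of the coding sequence, and 7 exon junctions lie downstream, the last of them 1121 bases away. The 123 bases of codons 130 to 170 (chr6:49045325-49045447), with codon 150 in capitals, are the reference sequence.
Gpnmb-201: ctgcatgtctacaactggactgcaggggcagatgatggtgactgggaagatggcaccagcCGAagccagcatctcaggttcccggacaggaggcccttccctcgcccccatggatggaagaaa
The counts were made per gene and do not read this codon, so the allele itself was taken from the labels.

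Promoter letters were read from RefSeq windows of 300 bases on GRCm38.p6, 250 before and 50 after each start. All 5 genes matched, with 1 window for Gpnmb and 9 for the other genes together. The Gpnmb window (chr6:49036268-49036567) held none of the MiT/TFE motifs searched on both strands. These were the E-box CACGTG, a second E-box, CATGTG, which also lies inside the M-box TCATGTG, and a longer CLEAR palindrome that contains the first E-box. Of 32851 such windows, 7.15% held CACGTG, 14.15% held CATGTG, 3.772% held the M-box and 0.3257% held the palindrome. The Gpnmb window did hold TGACTCA, the letters bound by AP-1 (Fos and Jun) proteins, starting 9 bases after the RefSeq start, as did 5.202% of all windows. The 9 windows of Mitf, Tfeb, Tfe3 and Tfec held none of the 5 motifs. The stretch around the Gpnmb match (chr6:49036516-49036542, plus strand) is shown with the motif in capitals, beside sites of 3 MiT/TFE-linked genes whose RNA levels are given further on (Fnip1 at chr11:54438092-54438121 and Mcoln1 at chr8:3500462-3500491 on the plus strand, Ctsd at chr7:142387908-142387937 on the minus strand), where the capitals mark CACGTG.
Gpnmb: caggggcaagTGACTCAtgagcacgag
Fnip1: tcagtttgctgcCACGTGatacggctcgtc
Mcoln1: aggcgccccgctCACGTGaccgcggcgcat
Ctsd: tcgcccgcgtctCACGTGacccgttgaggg
Mcoln1 held a further CACGTG, in the stretch chr8:3500436-3500465, which is not shown. The same search of Rragd, Flcn, Fnip2, Atp6v0d2, Psap, Ctsb, Atp6v1b2, Sqstm1 and Scpep1 gave no stretch to show. A gene could lack one through having no window, no CACGTG or too few bases beside it. The 3 sites shown are therefore not typical of the MiT/TFE-linked genes named here. A match is a description of letters and not of a bound site.

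The libraries held between 14838969 and 18222868 counts. Levels are in CPM, which are counts scaled to a common total by library size times the TMM factor of the library. On this scale the floor of 3 counts stood for 0.158 to 0.209 CPM. Chi-square over genes, divided by its degrees of freedom, was 2.37 to 4.87 between replicates of a group, apart from replicate 1 of the untreated R150X group, which gave 9.61 and 10.5 against replicates 2 and 3. Where leaving this library out changed a call or moved a called value by over 1.5 times, the value without it is also given. All 8 macrophage markers examined were tested, and their summed level was 4202 to 4264 CPM in R150X cells with OxLDL, 4619 to 4646 CPM in WT cells with OxLDL, 6479 to 6734 CPM in untreated R150X cells and 5887 to 5973 CPM in untreated WT cells. In bulk RNA, fewer cells of a type and less RNA per cell cannot be told apart.

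Gpnmb was the member that separated the genotypes most. It had 704, 691 and 724 CPM in the R150X libraries with OxLDL, against 12552, 12355 and 12615 CPM in the WT libraries with OxLDL. Without OxLDL it had 363, 382 and 411 CPM in R150X libraries, against 5374, 5311 and 5305 CPM in WT libraries. Every R150X library lay below every WT library, and every OxLDL library lay above the untreated libraries of its genotype, so the order of the 4 groups was WT with OxLDL, WT untreated, R150X with OxLDL and R150X untreated, with no overlap between neighbours. Ranked by CPM among all genes, Gpnmb stood at 140 to 151 in R150X cells with OxLDL, 6 in WT cells with OxLDL, 323 to 394 in untreated R150X cells and 10 in untreated WT cells. In WT cells with OxLDL it took 1.20 to 1.22% of all counts.

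Relative to WT, R150X cells held 7.23% of the Gpnmb level without OxLDL (95% interval 6.80 to 7.68%), or -3.79 on the log2 scale (SE 0.0421, adjusted p = 1.03e-23). Under OxLDL they held 5.65% (5.31 to 6.01%), or -4.15 on the log2 scale (SE 0.0427, adjusted p = 2.2e-24). The remaining RNA was well above the floor, with 5449 counts in the lowest library. OxLDL raised Gpnmb 1.83-fold in R150X cells (interval 1.73 to 1.94, adjusted p = 4.83e-14) and 2.35-fold in WT cells (2.22 to 2.48, adjusted p = 1.25e-16). The difference between these responses, R150X less WT, is called the interaction and was -0.36 on the log2 scale (SE 0.0535, adjusted p = 0.000152), so the response in R150X was 78.1% of that in WT as a ratio of folds. In CPM the mean difference between OxLDL and untreated cells was 321 in R150X and 7177 in WT. Without replicate 1 of the untreated R150X group, the log2 fold changes were -3.76 between untreated genotypes and 0.83 for OxLDL in R150X, and the interaction was -0.39 (adjusted p = 2.06e-07).

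**Figure D1:**
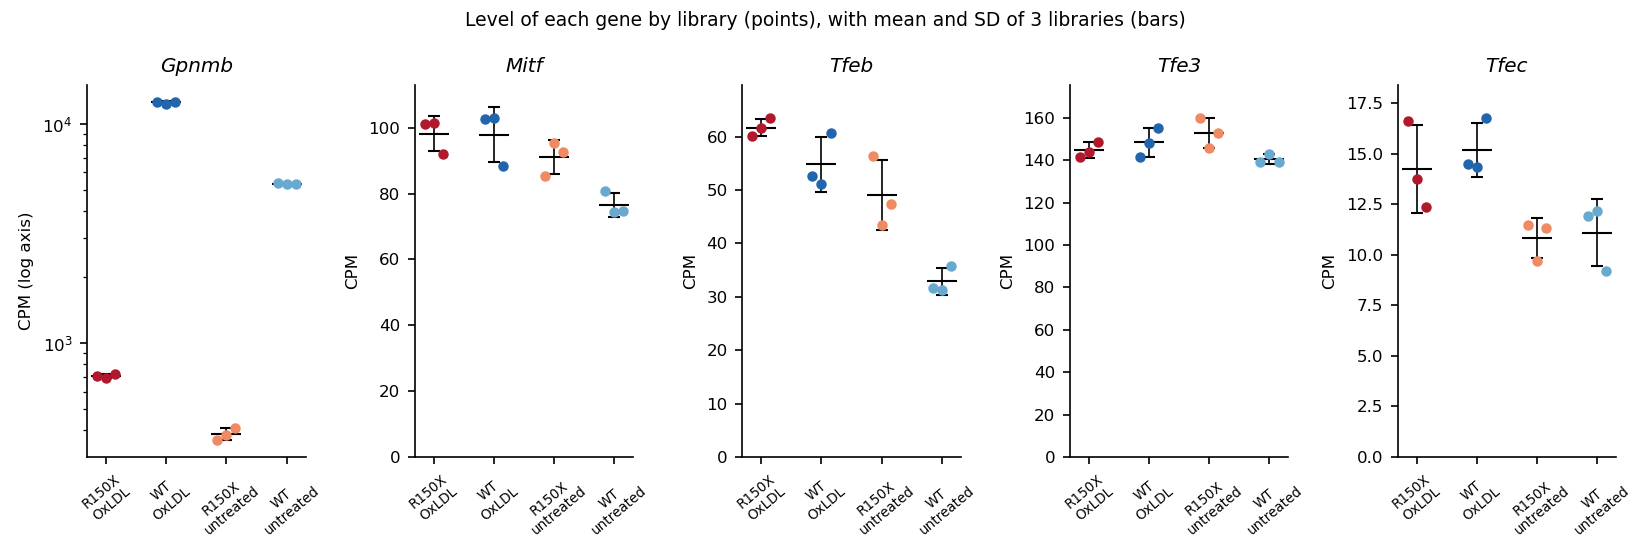
Level of Gpnmb (log axis), Mitf, Tfeb, Tfe3 and Tfec in CPM in each library (points), with the mean and SD of 3 libraries (bars), for R150X with OxLDL, WT with OxLDL, R150X untreated and WT untreated. Gpnmb separated all 4 groups, from 363 to 12615 CPM, whereas Tfe3 stayed between 139 and 160 CPM in all 12 libraries.

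Tfeb, a master regulator of lysosome and autophagy genes, lies at chr17:47737030-47792419. Its level was 60.2, 61.6 and 63.4 CPM in R150X cells with OxLDL, against 52.6, 51.2 and 60.6 CPM in WT cells with OxLDL. Untreated R150X libraries had 56.3, 43.5 and 47.4 CPM, against 31.6, 31.3 and 35.9 CPM in untreated WT libraries. Untreated WT cells were below all other groups, with no library in common. The genotypes overlapped under OxLDL, as did WT cells with OxLDL and untreated R150X cells.

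In untreated cells Tfeb rose 1.49-fold in R150X against WT (log2 fold change 0.57, SE 0.0856, adjusted p = 3.07e-05), and 0.46 without replicate 1 of the untreated R150X group. With OxLDL the genotypes differed by 0.17 (SE 0.0823, adjusted p = 0.196), which did not pass. OxLDL raised Tfeb 1.26-fold in R150X (0.33, SE 0.0823, adjusted p = 0.00259) and 1.66-fold in WT (0.73, SE 0.0857, adjusted p = 3.71e-07). The interaction for Tfeb was -0.40 on the log2 scale (SE 0.119, adjusted p = 0.0413). That call was lost without replicate 1 of the untreated R150X group, at -0.29 (adjusted p = 0.0837), and without any of 7 other libraries. These were replicates 1 to 3 of R150X with OxLDL (adjusted p = 0.0908, 0.084 and 0.055), replicates 1 and 3 of WT with OxLDL (0.0554 and 0.111) and replicates 1 and 2 of untreated WT (0.103 and 0.114). It was also lost with scaling by library size alone, at -0.31 (adjusted p = 0.112).

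Mitf, the founding member of the family and a regulator of pigment cells, osteoclasts and mast cells, lies at chr6:97807052-98021349, 48.8 Mb from the start of Gpnmb. It had 101, 101 and 92.0 CPM in R150X cells with OxLDL, against 103, 103 and 88.2 CPM in WT cells with OxLDL. Untreated R150X libraries had 85.4, 95.4 and 92.7 CPM, against 80.7, 74.4 and 74.7 CPM in untreated WT libraries. As with Tfeb, untreated WT cells were lowest and overlapped no other group, while the other 3 groups overlapped each other. Untreated R150X cells held 1.19-fold more Mitf RNA than untreated WT cells (log2 fold change 0.25, SE 0.0656, adjusted p = 0.00555). Under OxLDL the difference between genotypes was close to 0, with a 95% interval of -0.13 to 0.14 on the log2 scale (adjusted p = 0.986).

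OxLDL raised Mitf in WT by 0.35 (SE 0.0658, adjusted p = 0.000142), and in R150X the change of 0.11 (SE 0.0652, adjusted p = 0.218) did not pass. The test of the difference between these responses did not pass either, at -0.25 (SE 0.0926, adjusted p = 0.11). It did pass without replicate 1 of the untreated R150X group (-0.29, adjusted p = 0.0374) and without replicate 3 of WT with OxLDL (-0.32, adjusted p = 0.0281).

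Tfe3, a widely expressed member that acts on many of the same promoters as TFEB, lies at chrX:7762560-7775202. It had 142, 144 and 149 CPM in R150X cells with OxLDL, against 142, 148 and 155 CPM in WT cells with OxLDL. Untreated R150X libraries had 160, 146 and 153 CPM, against 139, 143 and 139 CPM in untreated WT libraries. The untreated genotypes did not overlap, yet their difference of 0.12 on the log2 scale did not pass (SE 0.0503, adjusted p = 0.0696). It passed without replicate 2 of untreated R150X (0.16, adjusted p = 0.0374), and was 0.08 (adjusted p = 0.226) without replicate 1. In the remaining comparisons Tfe3 changes were between -0.16 and 0.08 and none passed, with intervals of -0.14 to 0.07 between genotypes under OxLDL, -0.18 to 0.03 for OxLDL in R150X and -0.03 to 0.18 for OxLDL in WT.

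Because Tfe3 is X-linked, RNA from sex chromosomes is given beside it. Xist, the noncoding RNA behind X inactivation, stood at 327 to 346 CPM in R150X cells with OxLDL and 0 to 0.0695 CPM in WT cells with OxLDL, and at 228 to 349 CPM in untreated R150X cells and 0.590 to 2.75 CPM in untreated WT cells. The Y-linked gene Ddx3y had 55.4 to 60.1 CPM in R150X cells with OxLDL, 83.6 to 100.4 CPM in WT cells with OxLDL, 51.3 to 59.1 CPM in untreated R150X cells and 85.1 to 86.8 CPM in untreated WT cells. The sex mix of the cells therefore moved with genotype, and its part in any genotype difference cannot be told apart from that of the allele.

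Tfec, whose expression is largely restricted to macrophages and related cells, lies on the minus strand at chr6:16833373-16898441, 32.2 Mb before Gpnmb. It was the least abundant member, with 171 to 265 counts in a library. Its level was 16.6, 13.7 and 12.4 CPM in R150X cells with OxLDL, against 14.5, 14.4 and 16.8 CPM in WT cells with OxLDL. Untreated R150X libraries had 11.5, 9.70 and 11.3 CPM, against 11.9, 12.2 and 9.18 CPM in untreated WT libraries. The OxLDL groups lay above the untreated groups of both genotypes without overlap, and the genotypes overlapped within each treatment. OxLDL raised Tfec by 0.40 in R150X (SE 0.128, adjusted p = 0.0182) and by 0.45 in WT (SE 0.127, adjusted p = 0.00593).

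The call in R150X was lost without replicate 2 of untreated R150X (0.32, adjusted p = 0.0871) and without replicate 1 of R150X with OxLDL (0.27, adjusted p = 0.125). Between genotypes Tfec differed by -0.04 without OxLDL (interval -0.31 to 0.23, adjusted p = 0.854) and by -0.09 with OxLDL (interval -0.35 to 0.17, adjusted p = 0.703). The interaction interval was also wide, at -0.43 to 0.32 (adjusted p = 0.902).

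**Figure D2:**
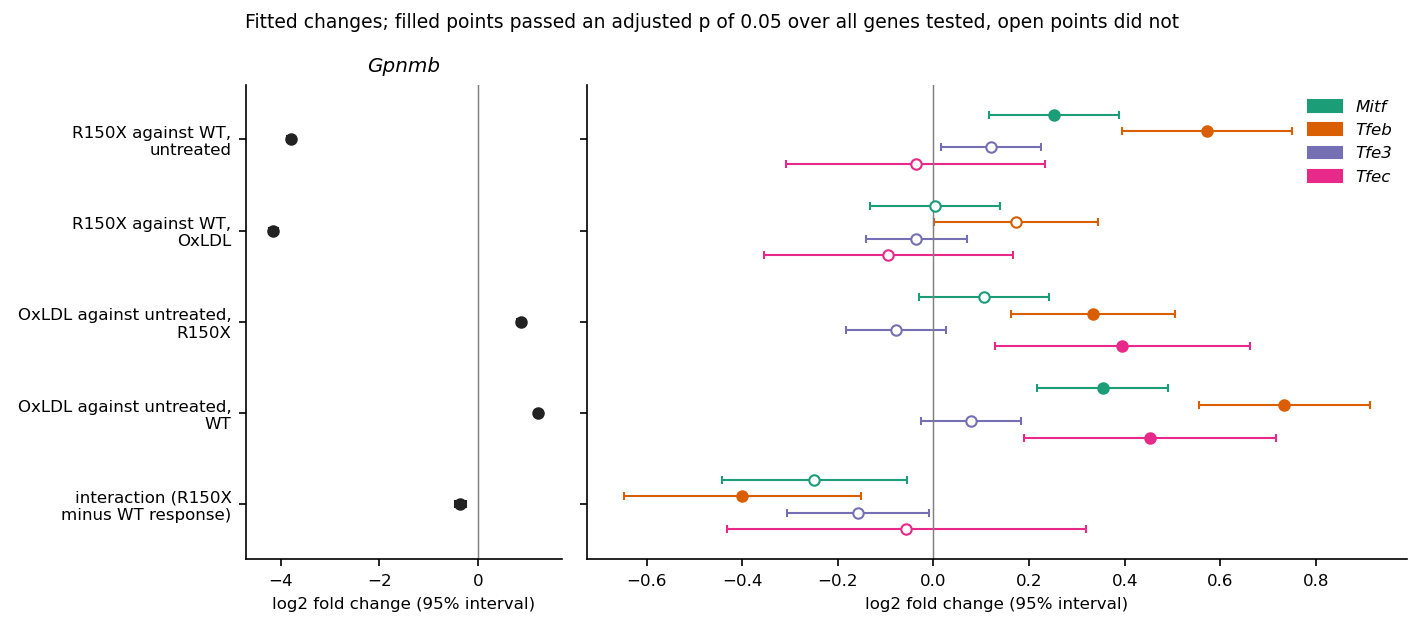
Fitted log2 fold changes with 95% intervals for Gpnmb (left) and for Mitf, Tfeb, Tfe3 and Tfec (right) in the 5 comparisons, on separate horizontal scales. Filled points passed the adjusted threshold and open points did not: Tfeb was called in 4 of the 5 comparisons, all but R150X against WT with OxLDL, and Tfe3 in none.

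Set against all genes, the members' calls were as follows. Between untreated genotypes Mitf and Tfeb rose and Gpnmb fell in R150X, 3 of 5 members, where 33.0% of all tested genes were called (18.1% higher and 14.8% lower). Under OxLDL Gpnmb alone of the 5 was called between genotypes, as lower, against 13.0% of all genes (6.10% higher and 6.92% lower). OxLDL raised Gpnmb, Tfeb and Tfec in R150X and these and Mitf in WT, where 39.0% of all genes were called in R150X (18.4% higher and 20.6% lower) and 45.8% in WT (22.7% higher and 23.1% lower). The interaction was called for Gpnmb and Tfeb and for 8.32% of all genes (3.13% higher and 5.19% lower), and was below 0 for both members. The comparisons share groups, so these counts are not independent of each other.

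Compared per length, the family was made up mostly of Tfe3, Mitf and Tfeb. The level of each gene was divided by its summed exon length and expressed as a share of the 4 genes' sum, with the mean and SD of 3 libraries. Tfeb held 24.3 ± 0.902% in R150X cells with OxLDL and 21.9 ± 1.83% in WT cells with OxLDL, and 20.7 ± 2.17% in untreated R150X cells and 16.4 ± 1.38% in untreated WT cells. Tfe3 held 34.8 ± 1.26% and 36.2 ± 1.28% in R150X and WT cells with OxLDL, and 39.5 ± 0.645% and 42.9 ± 0.984% in untreated R150X and WT cells. The share of Mitf lay between 35.0 and 35.8% in every group, and that of Tfec between 4.62 and 6.14%. The summed level was 44.9 ± 0.506 CPM per kb in R150X cells with OxLDL, 44.2 ± 0.496 in WT cells with OxLDL, 41.8 ± 1.24 in untreated R150X cells and 35.3 ± 0.375 in untreated WT cells. Untreated WT cells thus had the lowest family total and the highest Tfe3 share. On the same length scale Gpnmb was at 108 ± 2.51 CPM per kb in R150X cells with OxLDL and 1920 ± 20.8 in WT cells with OxLDL, and at 59.1 ± 3.66 in untreated R150X cells and 818 ± 5.80 in untreated WT cells. No group had less Gpnmb than the family sum.

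The order within the family depended on the length used. Scaled by the longest transcript instead, Tfeb held 35.8% in R150X cells with OxLDL and 25.5% in untreated WT cells, and Mitf 27.3% and 28.4% in these groups. Tfeb then exceeded Mitf in 3 groups, R150X and WT with OxLDL and R150X untreated, whereas with summed exons it stayed below Mitf in all 4. Tfec was lowest on both scales.

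**Figure D3:**
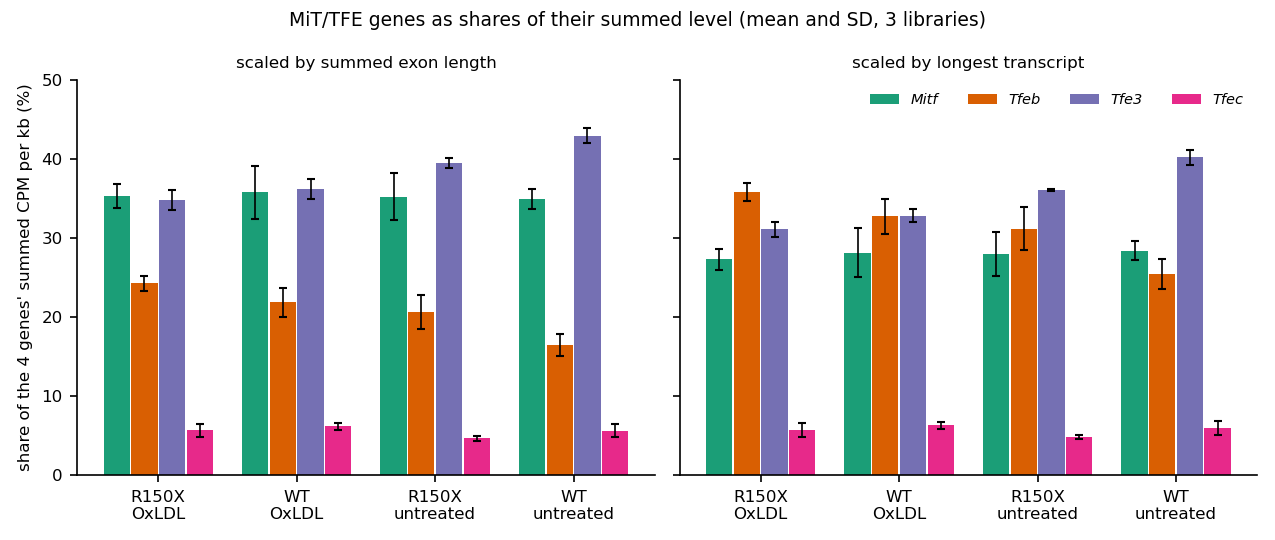
Share of Mitf, Tfeb, Tfe3 and Tfec in their summed CPM per kb (%), scaled by summed exon length (left) or by the longest transcript (right), as mean and SD of 3 libraries for R150X with OxLDL, WT with OxLDL, R150X untreated and WT untreated. The Tfe3 share was highest in untreated WT cells and the Tfeb share highest in R150X cells with OxLDL on both scales.

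The genes whose pattern over the 12 libraries was most like that of each member were found by the root mean square distance between log2 CPM values centred on each gene's mean. Entries without a symbol, or with predicted-gene, Rik, clone or pseudogene-style names, were left out of this search. Of the genes compared, none was close to Gpnmb. The nearest were the granulocyte granule genes Elane at 1.01 and Mpo at 1.12 log2 units and Brinp3 at 1.15. They were low, with Elane at 0.184 CPM in R150X cells with OxLDL, 2.32 CPM in WT cells with OxLDL, 0.317 CPM in untreated R150X cells and 1.85 CPM in untreated WT cells.

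Closer matches existed for the family. Mitf was nearest to Atg12, a ubiquitin-like autophagy protein, at 0.0479, then Rnf13 at 0.0597 and Cd48 at 0.0618. Close to Tfeb were Spsb2 at 0.0646 and the chromatin protein gene Hmga1 at 0.0669. Tfe3, which varied little, was nearest to Lrpap1 at 0.0367, the HDL receptor gene Scarb1 at 0.0394 and Cyb5r3 at 0.0401. Tfec was nearest to the autophagy gene Atg14 at 0.0955, Srr at 0.116 and Dcp1b at 0.132.

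Neutrophil markers moved in the same direction as Gpnmb between genotypes. Their 8 genes summed to 36.8 to 38.3 CPM in R150X cells with OxLDL and 118 to 136 CPM in WT cells with OxLDL, and to 189 to 205 CPM in untreated R150X cells and 416 to 441 CPM in untreated WT cells. All 7 markers tested fell in R150X in both genotype comparisons, beside 14.8% of all genes lower without OxLDL and 6.92% with it. Unlike Gpnmb, the neutrophil marker sum was lower with OxLDL in both genotypes. By gene, OxLDL lowered 6 of the 7 in R150X, and in WT it lowered 5 and raised 1. Over all genes 39.0% were called in R150X and 45.8% in WT. Mpo and Elane, named above, went against the sum in WT. They averaged 4.69 and 1.85 CPM in untreated WT cells and 6.99 and 2.32 CPM in WT cells with OxLDL. Stromal markers, 8 of 8 tested, summed to 6029 to 6336 CPM in R150X cells with OxLDL and 6167 to 6791 CPM in WT cells with OxLDL, and to 8595 to 8660 CPM in untreated R150X cells and 12883 to 12996 CPM in untreated WT cells. By gene the stromal markers went both ways: in R150X 2 rose and 5 fell without OxLDL, and 1 rose and 3 fell with it. Of all genes, 33.0% were called between genotypes without OxLDL and 13.0% with it. With OxLDL Cxcl12 had 1415 to 1455 CPM in R150X cells and 757 to 785 CPM in WT cells. Col1a1 had 1768 to 1884 CPM and 2181 to 2567 CPM in these groups. The part of neutrophil or stromal RNA in the genotype differences was not tested.

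Markers of other cells known to express Mitf were also measured. Melanocyte markers summed to at most 1.93 CPM in any library, and the pigment enzymes Tyr, Tyrp1 and Dct had 0 counts in all 12 libraries. Mast cell and basophil markers, of which 2 of 8 were tested, summed to 10.8 to 11.8 CPM in R150X cells with OxLDL and 9.80 to 11.2 CPM in WT cells with OxLDL, and to 16.0 to 17.7 CPM in untreated R150X cells and 18.2 to 20.6 CPM in untreated WT cells. The sum was thus lower with OxLDL, but most of it was Kit alone. Kit had 15.6 to 17.6 CPM in untreated WT cells and 8.30 to 9.96 CPM in WT cells with OxLDL. Osteoclast markers, of which 5 of 7 were tested, stood higher than both of these sets and summed to 189 to 199 CPM in R150X cells with OxLDL and 172 to 179 CPM in WT cells with OxLDL, and to 235 to 249 CPM in untreated R150X cells and 226 to 231 CPM in untreated WT cells. By gene the osteoclast markers went both ways. OxLDL raised 1 and lowered 2 in R150X, and raised 2 and lowered 2 in WT. Of all genes, 39.0% were called in R150X and 45.8% in WT. In R150X 2 rose and 2 fell without OxLDL, and 1 rose and 1 fell with it. These genotype comparisons called 33.0% and 13.0% of all genes. The part of these other cells in the levels of the 5 genes was not tested.

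Genes that set where the factors sit in the cell were examined next, from a list of 32 genes of mTORC1, the Rag GTPases, the LAMTOR complex, folliculin and calcineurin, of which 31 were tested and Rragb was not. OxLDL raised 12 and lowered 3 of them in R150X, and raised 17 and lowered 2 in WT, or 48.4% and 61.3% called in either direction, where 39.0% and 45.8% of all genes were. By library size alone, which shifted the median of all genes by -0.11 in WT, 10 rose and 4 fell there, and without replicate 3 of R150X with OxLDL 1 fell in R150X. Median log2 fold changes were 0.13 in R150X and 0.16 in WT, beside 0.00386 and 0.01 over all genes. Between untreated genotypes 9 rose and 3 fell in R150X, 38.7% of the list beside 33.0% of all genes (median 0.11, beside 0.01). Without replicate 2 or 3 of untreated WT none fell, and by library size alone or with a filter of 5 CPM in 3 libraries 6 fell. Between genotypes with OxLDL 2 rose, 6.45% of the list beside 13.0% of all genes, and none did without replicate 1 or 2 of WT or 2 or 3 of R150X and 1 without R150X replicate 1 or without a filter on low counts. In the interaction edgeR called 0, with 1 higher and 7 lower at an unadjusted p under 0.05, and DESeq2 also called 0. At most 1 was higher and 2 were lower under any alternative.

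Rragd, a Rag GTPase and itself a MiT/TFE target that helps recruit mTORC1 to lysosomes, responded most. Its level was 41.2 ± 2.25 CPM in R150X cells with OxLDL and 36.2 ± 2.76 CPM in WT cells with OxLDL, and 21.5 ± 1.00 CPM in untreated R150X cells and 16.7 ± 1.16 CPM in untreated WT cells (SD, n = 3 each). OxLDL raised it by 0.94 in R150X (adjusted p = 2.44e-09) and 1.12 in WT (adjusted p = 1.86e-10), and it rose in untreated R150X by 0.37 (adjusted p = 0.00206). Folliculin (Flcn), a GTPase-activating protein for RagC and RagD, rose with OxLDL by 0.30 in R150X (adjusted p = 0.000497) and 0.49 in WT (adjusted p = 1.21e-06). Its partner Fnip2 rose by 0.65 and 0.59 in R150X and WT (adjusted p = 8.78e-09 and 3.29e-08). The paralog Fnip1 rose by 0.27 and 0.24 (adjusted p = 0.00296 and 0.00713), and its call in WT was lost without replicate 2 of WT with OxLDL (0.17, adjusted p = 0.0638) and by library size alone (0.12, adjusted p = 0.162). None of Flcn, Fnip1 and Fnip2 passed the test between genotypes in either treatment, with log2 fold changes between -0.08 and 0.15.

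Mcoln1, the lysosomal calcium channel that activates calcineurin, rose with OxLDL by 0.54 in R150X (adjusted p = 2.65e-08) and 0.52 in WT (adjusted p = 4.23e-08). Its genotype differences of 0.15 without and 0.17 with OxLDL were near the threshold (adjusted p = 0.0361 and 0.0338), and with single libraries left out the adjusted p reached 0.166 and 0.122. Without replicate 1 of untreated R150X the first was 0.12 (adjusted p = 0.105), and by library size alone it was 0.07 (adjusted p = 0.309). Slc38a9, the lysosomal arginine sensor, rose with OxLDL by 0.37 and 0.54 in R150X and WT (adjusted p = 0.000124 and 6.78e-07). Xpo1, the exportin that carries TFEB out of the nucleus, fell by 0.25 and 0.39 on the log2 scale in R150X and WT (adjusted p = 0.00644 and 6.19e-05), and in R150X the call was lost without replicate 3 of R150X with OxLDL (-0.19, adjusted p = 0.0524). In untreated R150X cells 4 of the 5 LAMTOR scaffold genes rose, among them Lamtor2 by 0.52 (adjusted p = 0.000298), Lamtor4 by 0.46 (adjusted p = 0.00085) and Lamtor1 by 0.32 (adjusted p = 0.000121). Without replicate 1 of untreated R150X these changes were 0.40, 0.33 and 0.26 (adjusted p = 0.00138, 0.00534 and 0.000266). Mtor, the kinase of mTORC1, differed there by -0.22 (adjusted p = 0.0182), a call that was lost without replicate 1 of untreated R150X (-0.14, adjusted p = 0.0635) and without replicate 2 or 3 of untreated WT (-0.22 and -0.19, adjusted p = 0.0538 and 0.0828).

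The CLEAR network, a list of 45 lysosome and autophagy genes with known CLEAR elements, had 44 genes tested, without Ppargc1a. Of 34 with a RefSeq window, 16 (47.06%) held CACGTG, against 8.093% of 27025 genes. CLEAR elements contain this E-box, so the choice of the list built in such an excess, which is no separate evidence. In untreated cells 33 rose and 2 fell in R150X, 79.5% of the list beside 33.0% of all genes, with a median log2 fold change of 0.25 beside 0.01 over all genes. Leaving out replicate 1 of untreated R150X gave 30 and 2, and leaving out any of the other 5 untreated libraries left 1 that fell. With OxLDL 16 rose and 1 fell in R150X, 38.6% beside 13.0%, with a median of 0.10 beside 0.00198. OxLDL raised 31 and lowered 0 in R150X (median 0.30; also 0 lower at an unadjusted p under 0.05 and by DESeq2) and raised 38 and lowered 1 (Wipi1) in WT (median 0.39), and these were 70.5% and 88.6% of the list beside 39.0% and 45.8% of all genes. Without replicate 1 of untreated R150X 31 rose and 2 fell in R150X. The interaction was lower for 10 genes and higher for 0, 22.7% of the list beside 8.32% of all genes (median -0.15, beside -0.02), where DESeq2 called 15 lower and 0 higher and an unadjusted p under 0.05 gave 21 and 2. The number higher was 2 by library size alone, and 1 under 6 other settings, namely relative log expression factors, the stricter filter, the replicate block, and without replicate 3 of WT with OxLDL or replicate 2 or 3 of untreated R150X. The list was drawn up with results of these samples known, so its direction is no independent evidence.

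Psap, the precursor of saposins, had 20497 ± 192 CPM in R150X cells with OxLDL and 18595 ± 101 CPM in WT cells with OxLDL, and 12734 ± 613 CPM in untreated R150X cells and 8638 ± 51.0 CPM in untreated WT cells. Like Tfeb, it was lowest in untreated WT cells, and its interaction was -0.42 (adjusted p = 2.09e-06). The protease Ctsd rose in R150X by 0.55 without and 0.20 with OxLDL (adjusted p = 1.16e-09 and 0.00144), and OxLDL raised it by 0.72 in R150X and 1.08 in WT (adjusted p = 2.23e-12 and 2.48e-15). The proton pump subunit Atp6v1b2 rose in R150X by 0.67 without and 0.22 with OxLDL (adjusted p = 6.15e-11 and 0.000496), with an interaction of -0.45 (adjusted p = 1.68e-05). Another subunit, Atp6v0d2, rose by 0.50 in untreated R150X (adjusted p = 9.15e-08) but not by the test under OxLDL (0.07, adjusted p = 0.368), and the interaction was -0.43 (adjusted p = 0.000261). Sqstm1, the autophagy receptor p62, and Scpep1, a serine carboxypeptidase, rose in R150X in both treatments, Sqstm1 by 0.35 without and 0.38 with OxLDL and Scpep1 by 0.25 in each, with interactions of 0.04 (adjusted p = 0.798) and -0.00 (adjusted p = 1).

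**Figure D4:**
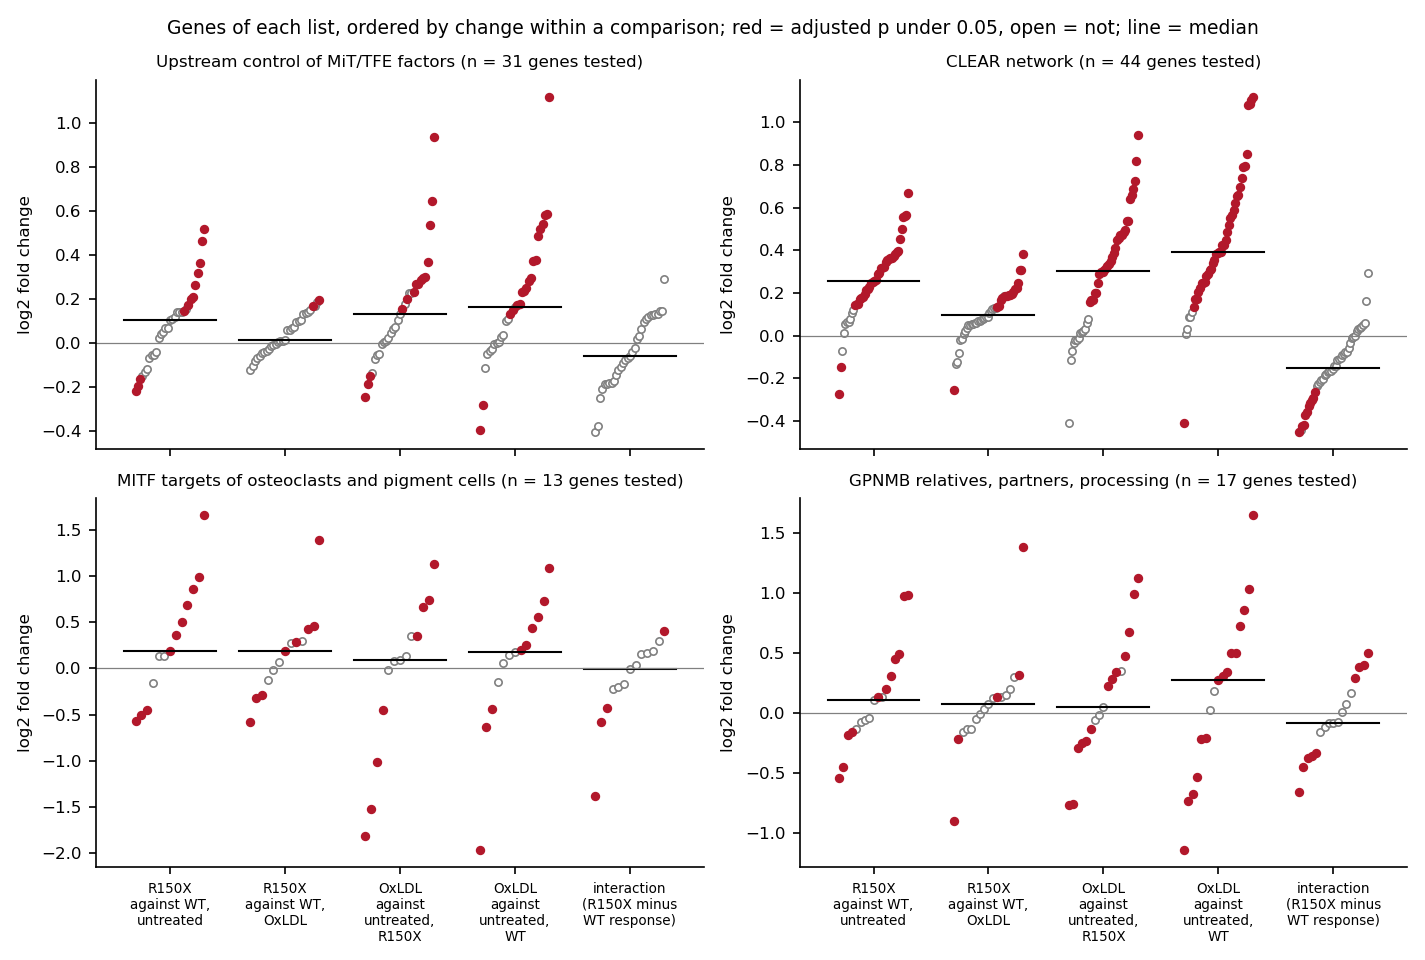
Log2 fold change of each tested gene in 4 lists (upstream control, CLEAR network, MITF targets, GPNMB relatives and partners) for the 5 comparisons. Red points passed the adjusted threshold, open points did not, and the line is the list's median, which for the CLEAR network was 0.25 and 0.10 between genotypes without and with OxLDL, 0.30 and 0.39 for OxLDL in R150X and WT, and -0.15 for the interaction.

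MITF targets known from osteoclasts and pigment cells formed a list of 22 genes, of which 13 were tested and 5 had no count in any library. This list shares genes with others, among them Ostm1 with the CLEAR list and Itgb3 with the list of GPNMB relatives given below. Results of the lists are therefore not independent of each other. The MITF targets went both ways. In R150X 7 rose and 3 fell without OxLDL, and 5 rose and 3 fell with it, with 1 falling when replicate 2 of WT with OxLDL was left out. These were 76.9% and 61.5% of the tested genes, beside 33.0% and 13.0% of all genes, with medians of 0.18 and 0.19 beside 0.01 and 0.00198. OxLDL raised 4 and lowered 4 in R150X and raised 6 and lowered 3 in WT, or 61.5% and 69.2% beside 39.0% and 45.8%, with medians of 0.09 and 0.18 beside 0.00386 and 0.01. The interaction was higher for 1, Itgb3, and lower for 3, or 30.8% beside 8.32% (median -0.00892, beside -0.02), and 2 were higher by library size alone. Itgb3 was not called without replicate 1 of untreated WT, 1 of WT with OxLDL or 3 of R150X with OxLDL.

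The osteoclast genes among them diverged. Acp5, tartrate-resistant acid phosphatase, had 19.4 ± 1.78 CPM in R150X cells with OxLDL and 23.6 ± 0.523 CPM in WT cells with OxLDL, and 67.9 ± 3.90 CPM in untreated R150X cells and 92.5 ± 3.14 CPM in untreated WT cells. It fell with OxLDL, with log2 fold changes of -1.81 in R150X and -1.97 in WT, opposite in direction to Mitf in WT. The collagenase Ctsk rose in R150X by 0.68 without and 0.46 with OxLDL (adjusted p = 6.14e-08 and 2.38e-05). Dcstamp, needed for cell fusion, had 3.99 ± 0.301 CPM in R150X cells with OxLDL and 3.30 ± 0.363 CPM in WT cells with OxLDL, and 11.5 ± 0.861 CPM in untreated R150X cells and 3.63 ± 0.281 CPM in untreated WT cells. Untreated R150X cells stood alone for Dcstamp, and its interaction was -1.38 (adjusted p = 0.000148). The integrin gene Itgb3 rose in R150X by 0.98 without and 1.38 with OxLDL (adjusted p = 3.39e-09 and 1.46e-11). The receptor gene Met rose in R150X by 0.86 without and 0.28 with OxLDL (adjusted p = 2.17e-09 and 0.00909), and the call with OxLDL was lost without replicate 2 of R150X with OxLDL (0.26, adjusted p = 0.0528). Hif1a, which encodes a hypoxia-inducible factor, fell by 0.50 and 0.32 on the log2 scale (adjusted p = 4.48e-07 and 0.000355). Bcl2, an inhibitor of apoptosis, rose with OxLDL by 0.73 in R150X and 0.43 in WT (adjusted p = 1.21e-06 and 0.000743).

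Relatives and partners of GPNMB and genes for its shedding formed a list of 17, all tested. In R150X 7 rose and 4 fell without OxLDL, a split that became 4 and 7 by library size alone and 2 that fell without any 1 of the 5 untreated libraries other than R150X replicate 1. With OxLDL 3 rose and 2 fell, and 1 fell without replicate 2 of either genotype. The list had 64.7% called without and 29.4% with OxLDL, beside 33.0% and 13.0% of all genes, and medians of 0.11 and 0.07 beside 0.01 and 0.00198. OxLDL raised 7 and lowered 6 in R150X and raised 9 and lowered 6 in WT, or 76.5% and 88.2% of the list beside 39.0% and 45.8% of all genes, with medians of 0.05 and 0.27 beside 0.00386 and 0.01. The interaction was higher for 4 and lower for 5, or 52.9% beside 8.32% (median -0.08, beside -0.02), with 1 or 2 higher without replicate 1 or 2 of either WT group or replicate 3 of R150X with OxLDL. Pmel, the closest relative of Gpnmb, averaged at most 0.821 CPM in any group and was not called in any comparison.

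Cd44, a reported GPNMB receptor, rose with OxLDL by 0.22 in R150X and 0.34 in WT (adjusted p = 0.00117 and 8.5e-06), and syndecan 4 (Sdc4), a GPNMB ligand on T cells, fell by 0.30 and 0.21 on the log2 scale (adjusted p = 0.000425 and 0.00509). By library size alone the WT changes were 0.22 for Cd44 and -0.33 for Sdc4, both still called. Adam10, a protease that can release the GPNMB ectodomain, stood between 151 and 167 CPM on average and was not called in any comparison. Cd36, a receptor for oxidised lipoprotein, had an interaction of -0.66 (adjusted p = 1.58e-06), with OxLDL changes of 0.99 in R150X and 1.65 in WT. Spp1, which encodes osteopontin, rose with OxLDL in WT by 0.50 (adjusted p = 1.36e-09), and in R150X its change was 0.05 (adjusted p = 0.372). The lipid receptor gene Trem2 rose with OxLDL by 0.68 and 1.03 in R150X and WT (adjusted p = 3.46e-09 and 2.9e-12).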

How the data were processed

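RNA-seq was measured in 12 libraries of 4 groups. The authors deposited 1 table of raw counts per Ensembl gene; the submitters' processing notes name FastQC, HISAT2, featureCounts, DESeq2, mm10 and GRCm38 and no versions. The annotation release is not given in the sources used here, and neither is the strand setting. Reads of overlapping or antisense genes therefore cannot be told apart. Of the identifiers, 54495 matched the GENCODE annotation of GRCm38; the other 37 held 0.00357% of counts. Genes with low counts were removed (filterByExpr by group), leaving 15338, libraries were scaled by TMM (factors 0.969 to 1.05), and 5 comparisons were tested with the quasi-likelihood test of edgeR 4.0.16 (R 4.3.3) in 1 model of all 12 libraries. P-values were adjusted by Benjamini and Hochberg's method across the 15338 genes, and a gene was called, and said to have risen or fallen, at an adjusted p under 0.05. Every adjusted p is from this test and each SE is that of a log2 fold change, taken as its size over the square root of the F statistic, from which the 95% intervals follow. The common biological coefficient of variation was 0.0608. On simulated counts the fit was checked for recovery of known changes.

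Alternatives were other scalings, DESeq2 1.42.0, other filters, only the groups compared, a replicate block, no sex chromosomes, another gene length and each library left out. Deviations of same-numbered libraries correlated at -0.0418 to 0.162 over 18 pairs (median 0.0368), of which 2 were over 0.1. Over 36 differently numbered pairs they ran from -0.125 to 0.0680 (median -0.0156), with 0 over 0.1. Same-numbered libraries were thus slightly more alike, and these values do not settle whether numbers pair samples. The labels state no pairing, so the main fit had no block and the replicate block was an alternative. Genes named besides the members were the 12 always listed (Rragd, Flcn, Fnip1, Fnip2, Mcoln1, Pmel, Atp6v0d2, Acp5, Ctsk, Cd44, Sdc4, Adam10), up to 3 called genes per list and comparison, those of smallest adjusted p, and the 3 most similar in pattern to a member, apart from a few genes not reported here; Wipi1 was named after its values were seen. Members, lists and tests were chosen with earlier results of these data known.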

Additional observations from a re-analysis of the deposited data

Results flagged for a closer look

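The OxLDL response differed between R150X and WT, by the edgeR test of that difference itself, for 13 of the members and list genes named in the text. On the log2 scale, as R150X response minus WT response, it was -0.36 for Gpnmb (0.87 in R150X, 1.23 in WT) and -0.40 for Tfeb (0.33 in R150X, 0.73 in WT). Among lysosomal genes it was -0.42 for Psap, -0.30 for Ctsb, which encodes cathepsin B (adjusted p = 1.7e-05), -0.36 for Ctsd (adjusted p = 0.00023), -0.45 for Atp6v1b2 and -0.43 for Atp6v0d2. It was -0.66 for Cd36, -0.45 for Spp1 (adjusted p = 2.55e-05) and -0.36 for Trem2 (adjusted p = 0.00724). For Dcstamp it was -1.38 and for Met -0.58 (adjusted p = 0.000422), and for Itgb3, alone of the 13, it was above 0 at 0.40 (adjusted p = 0.019). Of the 13 calls, those for Tfeb and Itgb3 were lost when some single libraries were left out. By library size alone, 66.5% of the genes called in this comparison were higher, against 37.6% with TMM scaling.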

How the results depend on the processing

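All calls and directions of Gpnmb held in all 5 comparisons under every alternative run. For Mitf, Tfeb, Tfe3 and Tfec, these results moved. The Tfeb interaction was -0.31 by library size alone (adjusted p = 0.112) and -0.48 to -0.29 with single libraries left out (adjusted p = 0.0109 to 0.114). The Mitf interaction was -0.32 to -0.21 with libraries left out, the Tfe3 difference between untreated genotypes 0.079 to 0.16 and the OxLDL change of Tfec in R150X 0.27 to 0.49. Changes near 0 that were never called turned sign: by library size alone Tfe3 for OxLDL in WT (-0.035) and the interactions of Tfec (0.035), Sdc4 (0.011) and Adam10 (0.00832), Adam10 for OxLDL in WT (-0.092) and Cd44 between genotypes with OxLDL (0.00777); with a filter of 5 CPM in 3 libraries Mitf (-0.00734) and Fnip2 (-1.78e-05) between genotypes with OxLDL; and with only the 2 groups compared Mitf (-0.00228). With libraries left out, values between genotypes with OxLDL ran from -0.068 to 0.047 for Mitf, -0.040 to 0.039 for Cd44 and -0.011 to 0.034 for Fnip2; between untreated genotypes from -0.16 to 0.038 for Tfec, -0.17 to 1.00 for Pmel and -0.096 to 0.017 for Fnip2; for OxLDL from -0.071 to 0.024 for Ctsk in R150X, and in WT from -0.12 to 1.04 for Pmel and -0.012 to 0.065 for Adam10; and for interactions from -0.18 to 0.061 for Tfec, -0.70 to 0.55 for Pmel, -0.027 to 0.049 for Mcoln1, -0.042 to 0.099 for Fnip1, -0.00951 to 0.11 for Fnip2 and -0.024 to 0.016 for Scpep1. The Scpep1 interaction was also 0.092 by library size alone, 0.00890 with relative log expression factors, 0.00653 by DESeq2, 0.011 without a filter and 0.015 with the stricter filter. The causes were not tested. By library size alone, 36.1% of genes called between untreated genotypes were higher (55.0% with TMM) and 31.6% for OxLDL in WT (49.6%). With the replicate block no call of the 5 genes changed, and the Tfeb interaction was -0.40 (adjusted p = 0.0257). Low counts limited the precision for Tfec, Pmel and Dcstamp, and the source of the replicates limits every p-value.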
